A study of Homo sapiens with 6 samples.

Results

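ARC, EGR1, EGR2, EGR3, NR4A1, NR4A2, NR4A3, SRF, IER2 and IER5 are 10 genes of the transcriptional response that follows growth factor stimulation or neuronal firing. They were matched by symbol among the 38557 gene symbols of the deposited count and TPM tables, and all 10 were found in both. The set was chosen by measured values of these same libraries, because ARC stood among the genes with the highest rise in the series, and its known companions were added by name. The differences between treated and control cells in these 10 genes are therefore a description, with no p-value.

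Immediate early genes are transcribed within minutes of a signal, because the factors that drive them already sit on their promoters and are switched on by phosphorylation. SRF with its ternary complex partners, and CREB, are the best known of these factors, and the ERK cascade is a main input to both. ARC and the EGR and NR4A genes are widely used as markers of neuronal activity, while EGR, NR4A and IER genes also respond to serum, stress and mitogens in epithelial cells.

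Poly(A)-selected RNA was sequenced from T-24, an adherent line of epithelial cells derived from a bladder tumour. Both groups were T-24 cells kept for 48 h, either with 1 µM CCT068127, a compound known to inhibit CDK2 and CDK9 (3 libraries), or with the vehicle DMSO (3 libraries). The genotype label is WT for the vehicle samples and names only the treatment for the others, so no engineered allele is given for either group. The libraries come from 1 line, and the series' design text calls the replicates independent biological ones. DMSO replicates 1 and 2 held 371044040 and 411097626 counts, while the other 4 libraries held 1966742 (CCT068127 replicate 2) to 5955296 (DMSO replicate 3). The low genes of those 4 libraries rest on few reads. The labels do not say why 2 totals are so much higher. Counts of 1 and 2 occurred for 1513 and 977 genes in DMSO replicate 1 and for 1453 and 958 in DMSO replicate 2, so these columns are not whole multiples of shallower counts. Counting intervals take all deposited counts as reads. The keratin genes KRT7, KRT8, KRT18 and KRT19 were all detected, at 225 to 1848 TPM as group means in DMSO, whereas the epithelial cadherin gene CDH1 was near 0 (0.12 TPM in DMSO and 0.03 TPM in CCT068127). EPCAM was low (5.05 TPM in DMSO), UPK2 and KRT5 were under 1 TPM, and the mesenchymal genes VIM (366 TPM) and CDH2 (100.1 TPM) were detected too. Of 7 tested genes of this marker list 6 rose, beside 31.9% of all tested genes. The risers were the keratin genes, among them KRT8 (1.79) and KRT19 (1.02) in log2 units, and the mesenchymal genes VIM (0.35) and CDH2 (0.27). EPCAM had no call. The count of 6 was 3 without DMSO replicate 2, DMSO replicate 3 or CCT068127 replicate 1, and 3 with library totals or on log2(TPM + 1) values. The part of this in the levels of the 10 genes was not tested.

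Of the 10 genes, 8 passed the low-count filter, and EGR2 and NR4A3 did not. CPM is the count scaled to a common library total. The filter asks for 1.74 CPM on raw totals, a count of 10 in a library of median size, in at least 3 libraries. CPM values printed for genes are on totals adjusted by TMM. In the edgeR fit, 6 of the 8 were called higher in CCT068127 (ARC, EGR1, EGR3, NR4A1, IER2 and IER5), 1 was called lower (NR4A2) and 1 had no call (SRF). A call is an adjusted p under 0.05 over all 13597 tested genes, of which 64.7% were called, 31.9% as higher and 32.8% as lower. The groups did not overlap for 7 of the 8 genes, against 69.4% of all tested genes. Because the set was picked from this same comparison, nothing is read from these counts. The median log2 fold change of the 8 was 1.59, beside -0.05 over all tested genes. ARC and EGR3 were under the cut in every DMSO library and passed the filter through the CCT068127 libraries alone. NR4A3, whose level was lower in CCT068127, did not pass, so nothing is read from this median either.

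**Figure D1:**
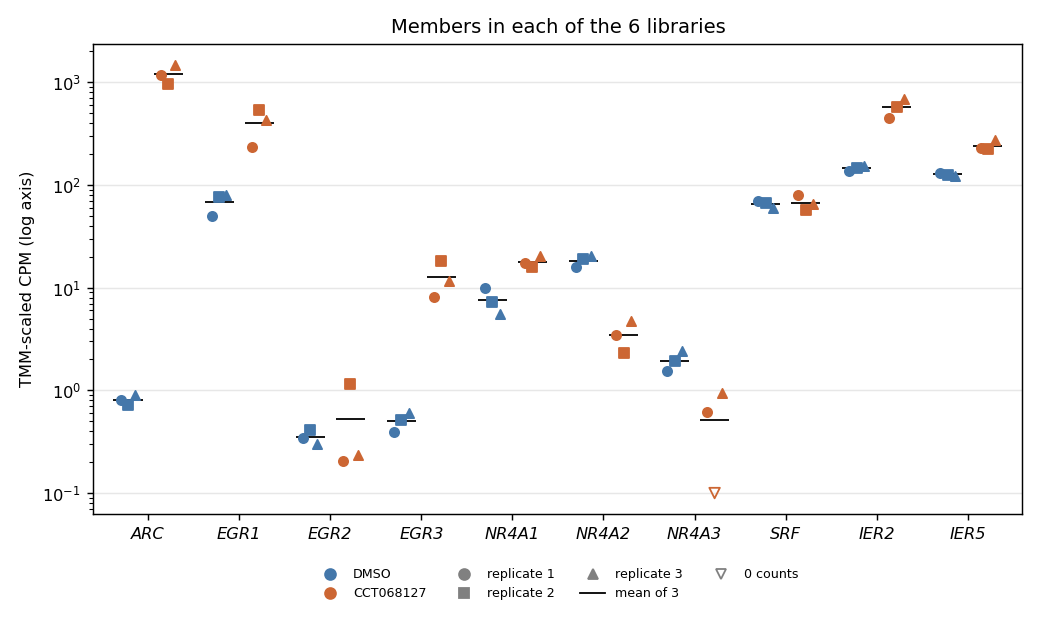
Level of each of the 10 genes in TMM-scaled CPM (log axis) in every library. Points are libraries, shapes are replicate numbers, black lines are group means of 3, and open triangles at the bottom mark 0 counts. ARC moves from under 1 CPM to 952 CPM or more, EGR1, EGR3, IER2 and IER5 are higher in every CCT068127 library, and NR4A2 is lower in every one.

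ARC encodes a synaptic protein derived from a retrotransposon Gag, known for drawing AMPA receptors into the cell. Its locus lies on chromosome 8 (142611049 to 142614479, GRCh38.p14). ARC had 330, 323 and 6 counts in DMSO replicates 1 to 3 and 5754, 1667 and 6158 counts in CCT068127 replicates 1 to 3. Scaled by TMM, ARC stood at 0.80, 0.72 and 0.90 CPM in DMSO and at 1173, 952 and 1458 CPM in CCT068127. The lowest treated library was thus above the highest control library by a wide margin, and the 3 DMSO libraries, deep or shallow, gave alike levels.

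The group means of ARC were 0.80 ± 0.09 CPM and 1194 ± 253 CPM (SD, n = 3), a ratio of 1486. The fitted log2 fold change was 10.61 ± 0.22 (SE). It was the fifth largest rise among the 13597 tested genes, below MPC1L (10.84) and above NPPC (10.19). Against DMSO replicate 3 alone, the control library of similar depth, the ratio of pooled counts over raw library totals, without TMM, was 1110, with an exact 95% counting interval of 508 to 3020. On log2(TPM + 1) values the difference was 8.59, a scale that understates the change of a gene so low in the control. ARC took 0.104%, 0.0848% and 0.132% of all counts in CCT068127 replicates 1 to 3, with exact 95% binomial intervals of 0.101% to 0.106%, 0.0807% to 0.0889% and 0.129% to 0.136%. Counting intervals here cover sampling of reads only.

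Of the 3 nearest protein-coding genes annotated by RefSeq on each side of ARC, 5 were found in the deposited tables. Of these, 3 passed the filter, and none of the 3 rose by the edgeR test, while 2 fell. JRK, 29.2 kb away, fell from 25.4 ± 2.42 CPM in DMSO to 12.5 ± 2.94 CPM with the compound (SD, n = 3). Its log2 fold change was -0.94 ± 0.16, with an edgeR adjusted p of 0.000494. TSNARE1, 204 kb away on the other side, fell from 20.2 ± 0.2 to 10.6 ± 3.36 CPM (log2 fold change -0.82, edgeR adjusted p = 0.00174).

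LY6K, a surface protein gene 85.6 kb away, averaged 109 ± 18.8 CPM in the controls, against 105 ± 12.7 CPM with the compound, and had no call (log2 fold change -0.04 ± 0.14, edgeR adjusted p = 0.805). It passed as lower when scaled by library totals (-0.36, edgeR adjusted p = 0.0406) and on log2(TPM + 1) values (-0.48, limma adjusted p = 0.0274). Those values lie at the median of all genes under the same settings, -0.36 and -0.46, so LY6K did not stand apart from other genes there. PSCA and ADGRB1 were under the filter. PSCA had 427, 331 and 1 counts in DMSO and 7, 4 and 7 in CCT068127. In TMM-scaled CPM this is 1.03, 0.73 and 0.15 against 1.43, 2.28 and 1.66. PSCA was thus higher in every CCT068127 library, though on few reads, and was not tested. ADGRB1, the nearest gene on the lower side at 66 kb, had 146, 132 and 2 counts in DMSO and 0 in each CCT068127 library. Taken singly, these 3 libraries, at 3 counts of their totals, allow up to 0.611, 1.71 and 0.71 TMM-scaled CPM. Each limit is above the DMSO level of ADGRB1 (0.31 CPM). The limit of the 3 libraries pooled, which is lower, was not computed.

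**Figure D2:**
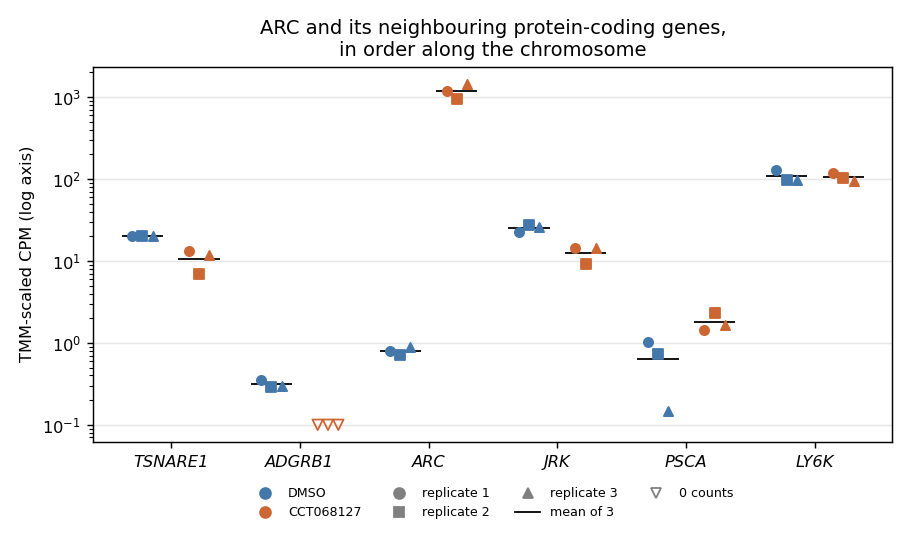
TMM-scaled CPM (log axis) of ARC and of 5 neighbouring protein-coding genes, ordered along the chromosome, in each library. Black lines are group means of 3 and open triangles mark 0 counts. ARC rises from a mean of 0.80 to 1194 CPM, JRK and TSNARE1 are lower in every CCT068127 library and the groups of LY6K overlap.

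The genes with a pattern most like that of ARC were found by the root mean square difference, over the 6 libraries, of log2(CPM + 0.1) relative to each gene's own DMSO mean. CDHR4, a cadherin-related gene, was nearest (0.696), followed by LOC107987293 (1.42), GADD45G (2.02), KRTAP2-3 (2.13) and ZNF667 (2.14). CDHR4 stood at 0.05, 0.03 and 0 CPM in DMSO and at 74.8, 92.5 and 102 CPM in CCT068127. GADD45G, a growth arrest and DNA damage gene, moved from a mean of 0.18 to 49.8 CPM. Each of these 5 genes was at or under 2.70 CPM in every DMSO library, and none reached the CCT068127 level of ARC, the highest of them being KRTAP2-3 at 214 CPM.

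The EGR genes encode zinc finger transcription factors that bind GC-rich sites. EGR1 stood at 49.6, 76.1 and 79.9 CPM in DMSO and at 236, 538 and 427 CPM in CCT068127. All treated libraries were above all controls, and both groups varied, with a coefficient of variation of 24% in DMSO and 38.2% in CCT068127. The log2 fold change of EGR1 was 2.55 ± 0.32 (SE).

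EGR3 was far lower in level, with 164, 231 and 4 counts in DMSO and 40, 32 and 49 counts in CCT068127. This is 0.40, 0.51 and 0.60 CPM against 8.15, 18.3 and 11.6 CPM, with no overlap. The log2 fold change of EGR3 was 4.68 ± 0.33, and the pooled ratio on raw totals against DMSO replicate 3 alone was 14.8 (exact 95% counting interval 5.63 to 55.2). In both EGR1 and EGR3 the highest library was CCT068127 replicate 2, which is also the shallowest, and the part of depth in that order was not tested.

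EGR2, known for its role in myelination, had 141, 186 and 2 counts in DMSO and 1, 2 and 1 counts in CCT068127. The pooled ratio of EGR2 on raw totals was 0.787, with an exact 95% counting interval of 0.213 to 2.03. It was 0.978 against DMSO replicate 3 alone, and the ratio of the TMM-scaled means was 1.50, so the direction depended on how the libraries were weighted. No difference in EGR2 was detectable at this depth. EGR4, the remaining family member, was not among the 10 genes but belonged to a list of EGR relatives. EGR4 rose from 0.23, 0.37 and 0.60 CPM in DMSO to 22.4, 39.4 and 34.3 CPM in CCT068127, or 6.66 ± 0.32 in log2 units. It passed the filter through the CCT068127 libraries alone, so no p-value is given for it. Without DMSO replicates 1 and 2 the log2 fold change of EGR4 was 5.61.

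The NR4A genes encode orphan nuclear receptors that act without a classical ligand. Their levels split. NR4A1 stood at 9.85, 7.17 and 5.52 CPM in DMSO and at 17.3, 16.0 and 20.1 CPM in CCT068127, so the treated libraries were all higher. The log2 fold change of NR4A1 was 1.19 ± 0.21, or 0.65 on log2(TPM + 1) values.

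NR4A2, a factor needed for dopamine neurons, went the other way, from 15.8, 19.1 and 20.2 CPM in DMSO to 3.46, 2.28 and 4.73 CPM in CCT068127. The groups of NR4A2 did not overlap, and its log2 fold change was -2.28 ± 0.23. NR4A3 had 634, 866 and 16 counts in DMSO and 3, 0 and 4 counts in CCT068127. In TMM-scaled CPM this is 1.54, 1.92 and 2.39 against 0.61, 0 and 0.95. The ratio of the TMM-scaled means of NR4A3 was 0.267, and the pooled ratio on raw totals was 0.299, with an exact 95% counting interval of 0.12 to 0.617. The 0 in CCT068127 replicate 2 allows up to 1.71 CPM on the same scale. This limit is above the level in DMSO replicate 1 (1.54) but below those in DMSO replicates 2 and 3 (1.92 and 2.39). That library alone is therefore not set apart from every DMSO library. NR4A2 was thus lower in the 3 libraries in which NR4A1 was higher, and the difference between these genes was not tested.

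SRF, the MADS-box factor that binds CArG boxes, stood at 69.7, 66.7 and 59.1 CPM in DMSO and at 79.5, 56.6 and 65.3 CPM in CCT068127. The groups overlapped and the log2 fold change was 0.06 ± 0.13. In TPM, SRF was 34.99, 32.94 and 29.74 in DMSO against 27.61, 20.36 and 23.68 in CCT068127, without overlap. On that scale SRF was lower, by -0.44 ± 0.13 on log2(TPM + 1) values. Over all genes with at least 1 TPM in 3 libraries the median on that scale was -0.46, so SRF lay near the middle of all genes on both scales.

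The IER genes encode small nuclear immediate early proteins. IER2 stood at 136, 146 and 153 CPM in DMSO and at 448, 579 and 693 CPM in CCT068127, a log2 fold change of 1.98 ± 0.15. IER5, which is known to act on the heat shock factor HSF1, stood at 131, 126 and 122 CPM in DMSO and at 228, 223 and 271 CPM in CCT068127, a log2 fold change of 0.93 ± 0.11. Neither gene overlapped between the groups. IER5 had the smallest of the 6 rises, and on log2(TPM + 1) values it was 0.43.

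**Figure D3:**
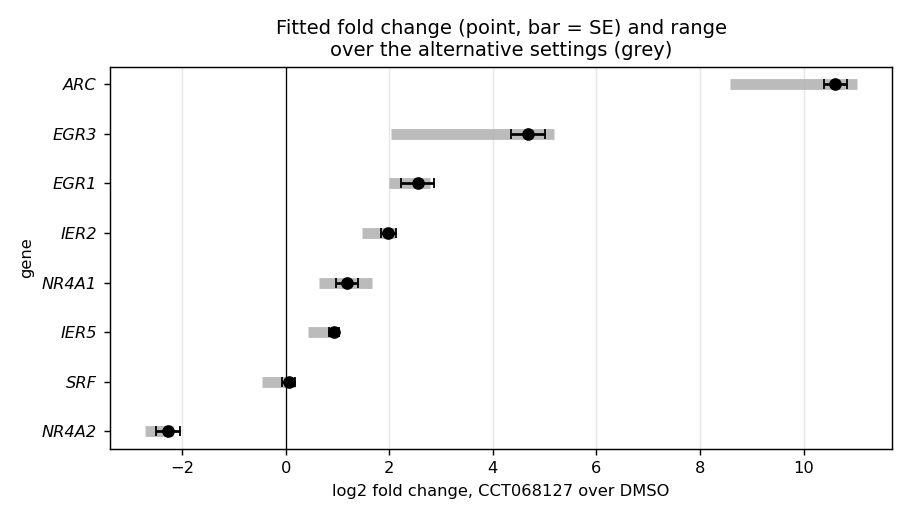
Fitted log2 fold change of the 8 genes past the low-count filter (black point, bar is the SE), with the range over 18 alternative settings in grey. The lowest value of ARC is 8.59 and the highest of NR4A2 is -2.18, while the range of SRF spans 0 (-0.45 to 0.17).

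Compared by TPM, which is scaled for transcript length, the order of the 10 genes changed with treatment. In DMSO it was IER2 (149 ± 8.79 TPM, SD, n = 3), IER5 (63.6 ± 2.5), EGR1 (46.5 ± 11.1), SRF (32.6 ± 2.65), NR4A2 (11.6 ± 1.31), NR4A1 (5.98 ± 1.65), NR4A3 (0.77 ± 0.21), ARC (0.58 ± 0.07), and EGR2 and EGR3 (0.26 each). The neighbours EGR1 and SRF, NR4A3 and ARC, and EGR2 and EGR3 overlapped between libraries. Within each DMSO library NR4A3 was above ARC, while the order in the other pairs changed from library to library. In CCT068127 ARC came first (616 ± 133 TPM), followed by IER2 (420 ± 96.4), then EGR1 (195 ± 77.1) and IER5 (86.3 ± 10.3). The ranges of ARC and IER2 overlapped between libraries. Within each CCT068127 library, though, ARC was above IER2 (590 against 320, 497 against 429 and 760 against 512 TPM). SRF (23.9 ± 3.63 TPM), NR4A1 (9.78 ± 1.01), EGR3 (4.36 ± 1.81) and NR4A2 (1.74 ± 0.62) were next, each apart from its neighbours. EGR2 (0.28 TPM) and NR4A3 (0.27 TPM) overlapped at the bottom. ARC therefore moved from eighth place to the first, and NR4A2 from above NR4A1 to below it.

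Promoter sequence was read from RefSeq windows of 300 bases (250 before and 50 from the start site, GRCh38.p14). Windows were found for 7 of the 10 genes, 11 windows in all. ARC, EGR3 and NR4A2 had none, so their promoters were not searched. Both strands were searched for the CArG box bound by SRF and for the CRE half-site TGACG bound by CREB. The windows shown are those that hold a CArG box (EGR1, SRF and 1 of 3 EGR2 windows), the one richest in CRE half-sites (NR4A3), and that of IER5. Capitals mark CArG boxes and CRE half-sites, and in IER5 the heat shock element letters GAANNTTC. All are written 5′ to 3′ on the gene's strand.
EGR1 (chr5:138465229-138465528, plus strand): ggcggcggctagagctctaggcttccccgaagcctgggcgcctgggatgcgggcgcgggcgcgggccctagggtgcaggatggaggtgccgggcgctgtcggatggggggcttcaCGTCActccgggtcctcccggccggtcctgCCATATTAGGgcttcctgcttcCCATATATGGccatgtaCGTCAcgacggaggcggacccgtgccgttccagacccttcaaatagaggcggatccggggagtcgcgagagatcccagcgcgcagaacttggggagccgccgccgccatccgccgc
EGR2 (chr10:62816317-62816616, minus strand): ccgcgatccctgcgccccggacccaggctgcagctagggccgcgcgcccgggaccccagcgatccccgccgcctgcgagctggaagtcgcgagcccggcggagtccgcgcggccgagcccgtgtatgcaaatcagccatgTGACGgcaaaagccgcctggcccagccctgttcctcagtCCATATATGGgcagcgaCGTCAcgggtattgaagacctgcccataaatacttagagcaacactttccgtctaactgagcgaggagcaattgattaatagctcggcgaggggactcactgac
SRF (chr6:43171019-43171318, plus strand): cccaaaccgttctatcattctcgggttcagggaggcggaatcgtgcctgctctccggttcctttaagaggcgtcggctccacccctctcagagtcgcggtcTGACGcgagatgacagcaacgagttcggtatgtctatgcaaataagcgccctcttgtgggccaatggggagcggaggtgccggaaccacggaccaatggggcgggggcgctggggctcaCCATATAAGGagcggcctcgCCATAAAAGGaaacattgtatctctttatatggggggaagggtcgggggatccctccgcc
NR4A3 (chr9:99821635-99821934, plus strand): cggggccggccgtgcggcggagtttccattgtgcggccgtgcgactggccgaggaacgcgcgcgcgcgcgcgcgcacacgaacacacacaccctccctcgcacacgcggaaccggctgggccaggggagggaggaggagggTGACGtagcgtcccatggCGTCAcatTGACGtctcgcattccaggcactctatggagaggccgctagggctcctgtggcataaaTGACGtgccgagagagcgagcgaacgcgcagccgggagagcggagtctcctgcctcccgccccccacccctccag
IER5 (chr1:181088450-181088749, plus strand): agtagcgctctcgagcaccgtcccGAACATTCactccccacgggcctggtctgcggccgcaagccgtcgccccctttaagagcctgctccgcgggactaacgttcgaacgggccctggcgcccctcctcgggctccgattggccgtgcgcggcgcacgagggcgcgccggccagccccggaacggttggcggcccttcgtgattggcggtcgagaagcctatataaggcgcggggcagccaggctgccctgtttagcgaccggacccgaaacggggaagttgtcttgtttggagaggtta

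EGR1 has 2 CArG boxes, whose first bases lie at -105 and -83 from the start site, with CRE half-sites at -135 and -66. EGR2 has 1 CArG box at -71 between CRE half-sites at -110 and -54. SRF has 2 CArG boxes at -30 and -10 in its own promoter, a CRE half-site at -149 and an EGR site (GCGGGGGCG) at -49. A CArG box occurred in 1.29% of all 35116 windows and 2 or more in 0.0313%.

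NR4A3 has 4 CRE half-sites, at -109, -91, -83 and -25, and no CArG box, and half-sites were present in 24.6% of all windows. IER2 has 1 half-site at -140. None of the 11 windows held a full TGACGTCA (1.85% of all windows) or the NR4A-binding letters AAAGGTCA (1.22%), on either strand. The EGR letters GCGTGGGCG and GCGGGGGCG, searched together, occurred in 5.77% of all windows, and GAANNTTC in 6.77%, here in IER5 at -226. The ETS core CCGGAA, the letters of ternary complex factors, occurred in 17.2% of all windows and in those of IER5, SRF, NR4A1 and IER2.

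EGR1, which was higher in every treated library, EGR2, in which no change was detectable, and SRF, which overlapped, thus share the same box in this window. The windows hold letters only, and binding was not measured.

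The genes around these members were followed in lists set by role. The lists share genes, among them EGR4, IER3, IER5L, CCN1, CCN2 and FHL2, so their counts are not separate observations. Over all tested genes 31.9% were called higher and 32.8% lower, and the counts of each list stand beside these shares. In the ERK cascade, 8 of 19 tested genes rose and 9 fell, with a median log2 fold change of -0.0026 beside -0.05 over all tested genes. The RAS exchange factor gene SOS1 (-1.22 ± 0.13), the scaffold gene KSR1 (-1.63 ± 0.18) and the ribosomal S6 kinase gene RPS6KA2 (-1.62 ± 0.15) fell, and RPS6KA4, a kinase that phosphorylates CREB and histone H3, rose by 1.46 ± 0.14. On log2(TPM + 1) values the split of this list was 2 higher and 10 lower. Over all 14394 genes tested on that scale it was 2474 higher and 7472 lower.

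Among 7 tested SRF cofactors (median 0.08) 2 rose and 2 fell, beside 31.9% and 32.8% of all tested genes. ELK3, a ternary complex factor, rose by 1.36 ± 0.13, and MRTFB, a myocardin-related coactivator, fell by 1.37 on the log2 scale (SE 0.16). SCAI, a suppressor of such coactivators, rose by 0.44 but lost its call with scaling by library totals (0.13, edgeR adjusted p = 0.427) and on log2(TPM + 1) values (limma adjusted p = 0.65). It also lost it without DMSO replicate 1 (edgeR adjusted p = 0.0501), DMSO replicate 2 (0.0683) or CCT068127 replicate 3 (0.0866). Of 21 tested cytoskeletal targets of SRF with its myocardin-related partners, 11 rose and 5 fell (median 0.29). TAGLN (3.46 ± 0.14), MYL9 (1.65 ± 0.13) and TES (1.31 ± 0.14), genes of the actin cytoskeleton, rose, and the tropomyosin gene TPM1 fell by 0.77. Scaled by library totals, 8 genes of this list were higher and 8 lower (median -0.03), as they were on log2(TPM + 1) values (median -0.21). Over all genes tested, 3006 were higher and 6567 lower with library totals (median -0.36). On log2(TPM + 1) values 2474 were higher and 7472 lower (median -0.46).

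CREB and MEF2 factors and their regulators were mostly lower, with 11 of 18 tested genes down and 2 up (median -0.68). The CREB coactivator gene CRTC1 (-1.59), the acetyltransferase gene EP300 (-0.87) and the kinase gene SIK3 (-1.96) fell. HDAC9, a class IIa deacetylase gene that restrains MEF2, rose by 2.44 ± 0.26 from a low level (0.83 to 5.01 CPM). HDAC9 passed the filter through the CCT068127 libraries alone. Its class IIa relatives HDAC4 (-0.64) and HDAC5 (-0.81) fell from higher levels (14.6 and 69.0 CPM in DMSO). HDAC7 (118 CPM in DMSO) had no call.

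Among 7 tested EGR relatives and corepressors, EGR4 was the 1 that rose and 3 fell (median -0.15). NAB2, a corepressor that EGR1 is known to induce, fell by 0.51 on the log2 scale, a call that was lost without CCT068127 replicate 3 (-0.35, edgeR adjusted p = 0.0809). CHD4, a chromatin remodeller gene (-0.50), and SP1, a factor of GC-rich sites (-0.97), fell too. With library totals 5 of the 7 fell, beside 6567 of all 13597 genes. On log2(TPM + 1) values 6 fell, beside 7472 of all 14394 genes tested there. The median of this list was -0.37 without CCT068127 replicate 1. Of 8 tested NR4A partners 6 fell (median -0.59). The retinoid receptor gene RXRA (-1.16) and the orphan receptor genes NR2F1 (-1.515) and NR2F2 (-0.71) fell.

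**Figure D4:**
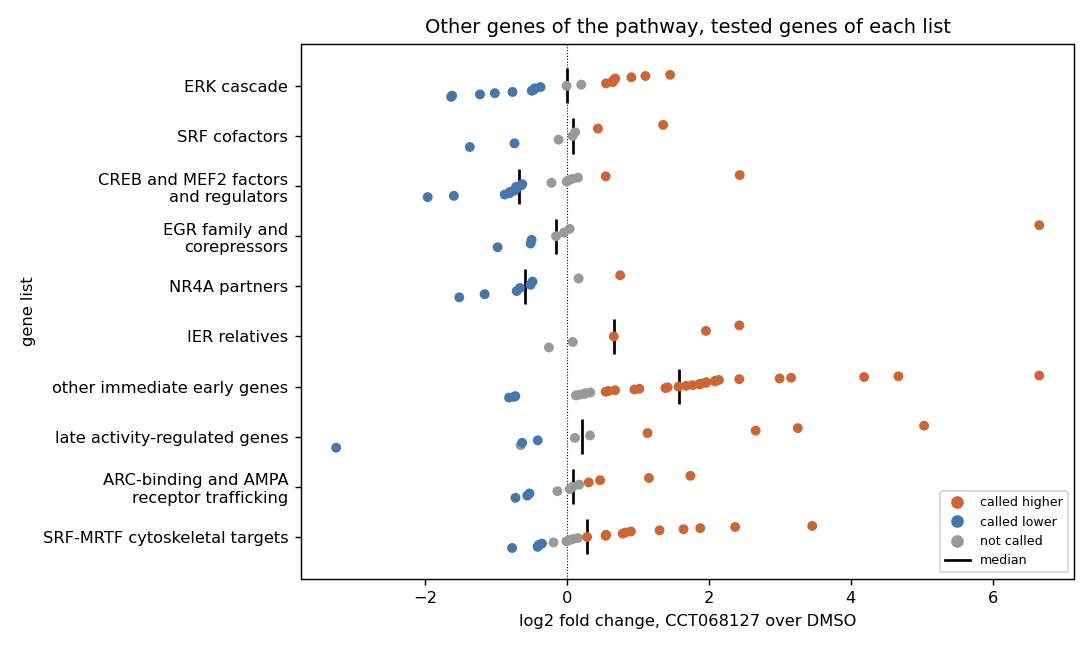
Log2 fold change of each tested gene (points) in 10 lists around the ARC, EGR, NR4A, SRF and IER genes, coloured by the edgeR call, with the list median as a black line. Other immediate early genes lie mostly to the right (median 1.58), CREB and MEF2 factors (median -0.68) and NR4A partners (median -0.59) mostly to the left.

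Other immediate early genes rose in 23 of 31 tested cases and fell in 3 (median 1.58). Besides EGR4, GADD45B rose from 54.7 ± 16 to 1410 ± 61.5 CPM and the stress gene IER3 from 202 ± 9.28 to 1087 ± 77 CPM. DUSP6, a phosphatase gene that is a standard readout of ERK activity, fell from 66.9 ± 2.94 to 40.8 ± 4.13 CPM (log2 fold change -0.73 ± 0.11). This list was drawn up with earlier results of these libraries known, so its direction is not independent evidence. In the small group of IER relatives 3 of 5 rose and 0 fell at an adjusted p under 0.05 (median 0.66). With library totals, on log2(TPM + 1) values or without CCT068127 replicate 1, 1 gene of this list was called lower, and the median was 0.35, 0.14 and 0.53. IER5L rose by 1.96 ± 0.15 and SERTAD1, which shares a domain with these proteins, by 0.66, though SERTAD1 missed the threshold on log2(TPM + 1) values (0.14, limma adjusted p = 0.326).

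Late genes that follow the immediate early wave in neurons went both ways. Of 17 listed, 10 were tested, 4 rose and 3 fell, beside 31.9% and 32.8% of all tested genes. Their median was 0.22, or -0.09 with library totals and -0.13 on log2(TPM + 1) values. VGF, a neuropeptide precursor gene, rose from 1.76, 1.59 and 0.75 CPM in DMSO to 43.8, 50.8 and 64.4 CPM in CCT068127. RGS4, a regulator of G-protein signalling, rose by 3.26 ± 0.13 and GPR3, a receptor that raises cyclic AMP, by 2.66 ± 0.21. SCG2, a secretogranin gene, fell from 47.8 ± 10.1 to 4.81 ± 0.86 CPM. Without DMSO replicates 1 and 2 the log2 fold change of VGF was 6.07, against 5.04 with all libraries.

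Partners of ARC in AMPA receptor traffic (median 0.08) went both ways, with 4 of 11 tested genes higher and 3 lower. This is near the shares over all tested genes, 31.9% and 32.8%. AP2M1, a clathrin adaptor subunit gene, rose by 1.16 ± 0.09. SH3GL1, an endophilin gene, rose by 0.47, but stood at 0.16 with library totals (edgeR adjusted p = 0.284) and at -0.04 on log2(TPM + 1) values. It also lost its call without DMSO replicate 3 (edgeR adjusted p = 0.052). The dynamin gene DNM3 rose by 1.74 from 0.92 CPM, but was -0.075 on log2(TPM + 1) values with no filter. DNM3 passed the filter through the CCT068127 libraries alone. DLG4, which encodes a postsynaptic scaffold, fell by 0.72. The AMPA receptor genes GRIA1 and GRIA2 were under the filter, with 0.01 CPM each in DMSO, and with 0.50 and 0 CPM under the compound. In CCT068127 replicates 1 to 3 GRIA1 stood at 0.20, 0.57 and 0.71 CPM, where 3 counts equal 0.611, 1.71 and 0.71 CPM. Both genes rest on few or no reads there, so no difference is read from them. On log2(TPM + 1) values this list had 1 gene higher and 6 lower of 10 tested. Over all 14394 genes tested on that scale 2474 were higher and 7472 lower.

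Neuronal markers were at or near 0. None of 13 passed the filter, 12 stayed under 1 TPM in every library, and their summed TPM was 2.13 to 3.58 in DMSO and 0.64 to 1.63 in CCT068127. Of 9 immune and endothelial markers 4 were tested, 2 rose and 1 fell (median 2.02), with a summed TPM of 11.2 to 14.3 in DMSO and 48.5 to 50.5 in CCT068127. CD68, a lysosomal membrane protein gene that many cell lines express, made up most of that sum, rising from 5.59 ± 1.63 to 45.7 ± 2.36 CPM. LYZ rose from 0.21 ± 0.06 to 3.38 ± 0.96 CPM and passed the filter through the CCT068127 libraries alone. The endothelial gene PECAM1 fell by 1.23 on the log2 scale, a call lost with limma-voom (adjusted p = 0.0632). KDR was at 0 in all 6 libraries and CD3E in the 3 CCT068127 libraries. Their part in the levels of the 10 genes was not tested.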

How the data were processed

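Expected counts per gene symbol, as whole numbers, and TPM values were deposited by the authors for 6 T-24 libraries. Per the submitters' processing notes, RSEM, Bowtie and hg38 were used, with no version stated for the tools. Annotation and strandedness are not given in the sources used here. GENCODE 29 places genes on the opposite strand over EGR3, NR4A1 and IER2, whose reads could not be separated. Cells were trypsinized per the series' design text, while the samples' protocol describes storage in TRI Reagent.

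Counts were tested with edgeR 4.0.16 in R 4.3.3 (filterByExpr, TMM, robust quasi-likelihood, two-sided, Benjamini-Hochberg over 13597 genes). The fit was also run on simulated counts with few changed genes, in random directions. That run does not check the TMM scaling here, where 64.7% of tested genes were called. SE is the absolute log2 fold change over the root of its F statistic. CPM are counts over TMM-scaled totals, as mean ± SD over 3 libraries, whereas pooled ratios and shares of counts use raw totals. Named genes outside the 10 were, per list, up to 3 called in its commoner direction and 1 in the other, by adjusted p, plus the 5 nearest to ARC in pattern and the cell type markers. Neighbours of ARC, GRIA1 and GRIA2 were named after values were seen. One gene that the rule would name is not reported here. The 10 genes, lists and alternatives were chosen with earlier results of these data known. Alternatives used DESeq2 1.42.0 and limma 3.58.1 (voom, and trend on log2(TPM + 1) or log2(TPM + 0.1)). TPM differences are on that log scale, which understates changes of low genes. Replicates of a group differed beyond counting noise (chi-square per degree of freedom 1.95 to 9.23). Changes are relative to other genes, since no spike-in is named. Fewer cells and less RNA per cell cannot be told apart.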

Additional observations from a re-analysis of the deposited data

How the results depend on the processing

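The calls of ARC, EGR1, EGR3, NR4A1, IER2 and IER5 as higher and of NR4A2 as lower were kept in each of the 17 alternatives with a test, and 6 members were called higher in each. The count of members called lower was 2 rather than 1 without a low-count filter, with the deep DMSO libraries thinned and with DESeq2, where NR4A3 was tested and added. It was also 2 on log2(TPM + 1) values with and without a filter and on log2(TPM + 0.1) values, where SRF was added, and it ranged from 1 to 2 when 1 library was left out. NR4A3 stood at -1.78 without a filter and from -2.04 to -1.27 without 1 library. SRF changed sign with library totals (-0.25), without a filter (-0.19), without DMSO replicate 3 (-0.03), without CCT068127 replicate 1 (-0.12; 0.12 at the highest when 1 library was left out) and on TPM values (-0.44 with and without a filter at a pseudocount of 1, -0.45 at 0.1). LY6K changed sign when DMSO replicate 1 (0.088) or CCT068127 replicate 3 (0.023) was left out, and against DMSO replicate 3 alone (0.086). SH3GL1 was -0.0395 on log2(TPM + 1) values with and without a filter and -0.0399 at a pseudocount of 0.1, and DNM3 was -0.075 on log2(TPM + 1) values with no filter. The cause was not tested. Tested genes called numbered 8793, and 7816 to 9242 without 1 library.

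With DMSO replicate 3 as the sole control, ARC was 10.31, EGR3 4.22 and NR4A1 1.67. The replicate block gave 8297 genes called, and log2 fold changes of 10.46 for ARC, 4.68 for EGR3 and 2.50 for EGR1. With it the SE fell for ARC (0.22 to 0.16), EGR1 (0.32 to 0.13) and IER2 (0.15 to 0.12). It rose for NR4A1 (0.213 to 0.228), NR4A2 (0.226 to 0.237) and IER5 (0.105 to 0.114). Deviations of same-numbered libraries were nearly uncorrelated (0.04, 0.00 and 0.03 for numbers 1 to 3), so the number is not used as a pairing. The libraries numbered 1 and 3 correlated best with their own number, though weakly, and those numbered 2 did not. The median log2 fold change of all genes moved from -0.05 to -0.36 with library totals and to -0.46 on log2(TPM + 1) values, where the split of calls was 3006 higher and 6567 lower, and 2474 higher and 7472 lower, beside 4333 and 4460. Depth limits EGR2 and NR4A3 most.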

Other observations

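Ranked by TPM among all 38557 gene symbols, ARC went from places 14757, 14993 and 14525 in DMSO replicates 1 to 3 to places 273, 302 and 229 in CCT068127 replicates 1 to 3. EGR3 went from 16921, 16545 and 15842 to 11120, 8957 and 10412, and NR4A2 moved down from 8697, 8130 and 7976 to 12419, 13800 and 11909. SRF kept a place between 3959 and 4916 in all 6 libraries. IER2 and IER5 had the lowest spread between DMSO libraries among the 10 genes (coefficients of variation of 5.76% and 3.69% in CPM).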
